A study of Mus musculus with 4 samples.

Results

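The 10 genes described here encode or control the class I and class II molecules of the mouse major histocompatibility complex (MHC). They are the class II genes Cd74, H2-Ab1, H2-Aa, H2-Eb1, H2-DMa and Ciita and the class I genes B2m, H2-K1, H2-D1 and Tap1, taken by symbol from a table of 23361 genes. All 10 were in the table, and 7 reached a mean of 0.5 FPKM over the libraries, the minimum for the test used below. The members were chosen by their Shh+ against Nfatc1+ values in these same libraries, which were already known, so those values are given as a description, with no test. RNA was sequenced from Shh+ cells (n = 2 libraries) and Nfatc1+ cells (n = 2 libraries) of embryonic mouse back skin at the hair peg stage, E17.5. Shh+ cells came from Shh-CreER::Rosa-stop-tdTomato::K14-H2BGFP embryos and Nfatc1+ cells from Nfatc1-CreER::Rosa-stop-tdTomato::K14-H2BGFP embryos, and Tamoxifen was given to the mothers of both at E15.5. In both lines the CreER recombinase, expressed from the Shh or the Nfatc1 gene, turns on the red reporter tdTomato, the K14 promoter drives a nuclear GFP in epithelial cells, and cells with both colors were sorted. The dermis with its hair pegs was digested for Shh+ cells, in 0.25% trypsin for 10 min after dispase at 0.4 mg/ml for 1 h had freed the epidermis. Whole skin was digested for Nfatc1+ cells, in 0.25% trypsin for 16 min, so population and digestion cannot be told apart.

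MHC class II molecules are pairs of an α and a β chain that show peptides from the endosome to CD4+ T cells. The invariant chain, encoded by Cd74, fills the groove of new α and β pairs until H2-DM exchanges it for a peptide, and the coactivator CIITA turns these genes on together through factors bound at their promoters. Class I molecules, made of a heavy chain and β2-microglobulin, show cytosolic peptides to CD8+ T cells. In skin, class II is best known from Langerhans cells, the dendritic cells of the epidermis, and keratinocytes can make it after exposure to interferon γ. The lower hair follicle of adult skin is known for low class I.

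Values are FPKM, fragments scaled to transcript length and to the mapped total of the library, and an SD is over the 2 libraries of a group. Log2 differences are Shh+ minus Nfatc1+ on log2(FPKM + 0.5), a scale that understates differences of low genes. The files give no counts, so absolute depth is unknown. Relative to Nfatc1+ replicate 1, depth read from the lowest values was 0.927 in Shh+ replicate 1, 0.575 in Shh+ replicate 2 and 0.927 in Nfatc1+ replicate 2. As the labels have it, Shh averaged 144 FPKM in the Shh+ libraries, against 11.1 FPKM in the Nfatc1+ libraries, and Nfatc1 averaged 22.7 FPKM in the Shh+ libraries, against 114 FPKM in the Nfatc1+ libraries. The epithelial marker Krt14 was at 1030 and 1086 FPKM in Shh+ cells, against 1232 and 1204 FPKM in Nfatc1+ cells. Of 21 immediate early and heat shock genes, which digestion can induce, 2 were called higher in Shh+ cells while 17 were higher in Nfatc1+ cells by limma at an adjusted p under 0.05, which called 18.1% of all tested genes toward Shh+ cells and 18.9% toward Nfatc1+ cells. Among them, Fos was at 243 and 207 FPKM in Shh+ libraries, against 817 and 736 FPKM in Nfatc1+ libraries. The 2 higher in Shh+ cells were 1 without Shh+ replicate 1 or Nfatc1+ replicate 1 and 0 without Nfatc1+ replicate 2. Their part in the results below was not tested. Whether libraries came from separate litters is not given in the labels or methods, so p-values measure only the spread between libraries. They also give no strain background. MHC genes differ in sequence between strains, and a difference of haplotype between the lines was not tested.

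Within class II, Cd74 and H2-Ab1 had far more RNA in Shh+ cells, and the other 4 genes were low or listed at 0 in both populations. Cd74 (GRCm38 chromosome 18, 60803849 to 60812652) had 88.2 and 76.5 FPKM in the Shh+ libraries, against 1.08 and 2.14 FPKM in the Nfatc1+ libraries. Both Shh+ values lay above both Nfatc1+ values, the means were 82.4 ± 8.27 FPKM in Shh+ and 1.61 ± 0.7501 FPKM in Nfatc1+ cells (SD, n = 2 each), and their ratio was 51.1 (log2 difference 5.34). This took Cd74 to the 96.6 and 95.9 percentiles of all genes in the Shh+ libraries, against the 50.1 and 53.8 percentiles in the Nfatc1+ libraries. Without 1 library in turn the ratio ran from 38.5, without Nfatc1+ replicate 1, to 76.2, without Nfatc1+ replicate 2.

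H2-Ab1 encodes the β chain of the class II molecule I-A and lies on chromosome 17 from 34263227 to 34269418. It was at 37.0 and 16.95 FPKM in Shh+ libraries, against 4.25 and 2.42 FPKM in Nfatc1+ libraries. The groups did not overlap, with means of 27.0 ± 14.2 FPKM in Shh+ and 3.34 ± 1.29 FPKM in Nfatc1+ cells (SD, n = 2 each), a ratio of 8.09 and a log2 difference of 2.78, but the Shh+ libraries differed from each other by more than those of Cd74 did. The ratio was 5.08 without Shh+ replicate 1, 11.1 without Shh+ replicate 2 and 11.1 without Nfatc1+ replicate 1. Cd74 and H2-Ab1 also stood in another proportion to each other: Cd74 had 2.38 and 4.51 times the FPKM of H2-Ab1 in the Shh+ libraries and 0.254 and 0.884 times in the Nfatc1+ libraries.

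The α chain partner of H2-Ab1 was at or near 0 in every library. H2-Aa, the I-A α chain gene (chromosome 17, 34282744 to 34287823), was listed at 0 in both Shh+ libraries and at 0.0946 and 0 FPKM in the Nfatc1+ libraries. H2-Eb1, the β chain gene of I-E (chromosome 17, 34305867 to 34316674), was at 0.246 and 0 FPKM in Shh+ cells, against 0.114 and 0.123 FPKM in Nfatc1+ cells. Scaled by relative depth, these H2-Eb1 values stood as 2 and 0 in the Shh+ libraries to 1 and 1 in the Nfatc1+ libraries, the whole-number steps that single fragments give, so no difference was detectable at this depth. Ciita, the gene of the class II coactivator (chromosome 16, 10480014 to 10531064), was listed at 0 in all 4 libraries. H2-DMa, the α chain gene of H2-DM (chromosome 17, 34119693 to 34139101), was at 2.42 and 1.698 FPKM in Shh+ libraries, against 2.47 and 2.48 FPKM in Nfatc1+ libraries. The groups did not overlap, but Shh+ replicate 1 came within 0.1 FPKM of both Nfatc1+ libraries, and the means of H2-DMa, 2.06 ± 0.508 FPKM in Shh+ and 2.47 ± 0.00578 FPKM in Nfatc1+ cells, differed by less than the SD of the Shh+ libraries.

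**Figure D1:**
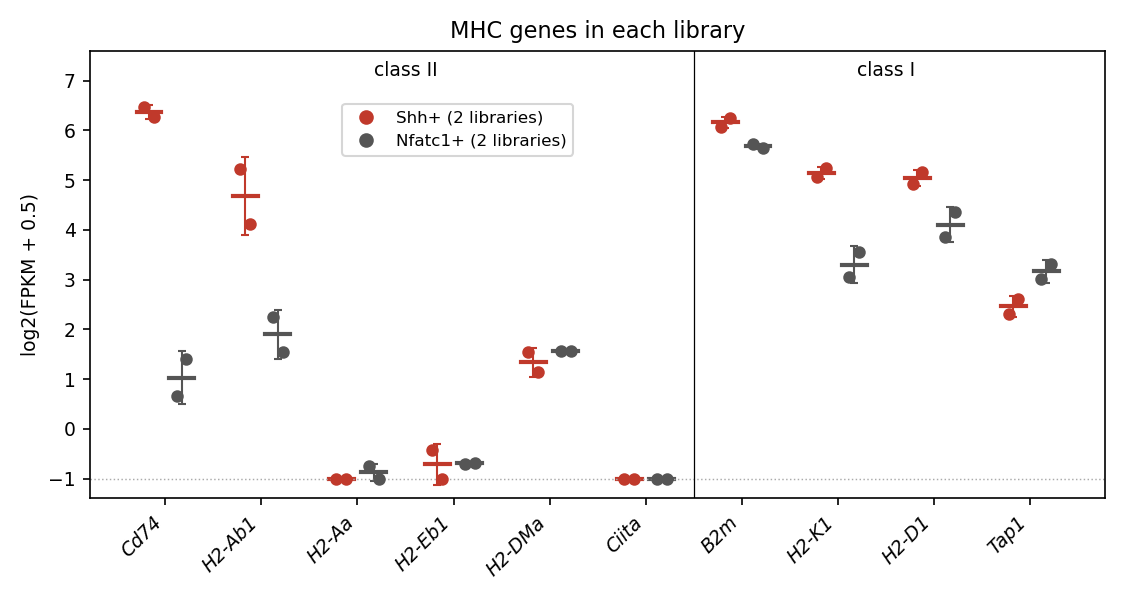
Values of log2(FPKM + 0.5) for the 10 MHC genes, by library, in Shh+ (red) and Nfatc1+ (grey) cells. Points are libraries, thick lines are means, bars are the SD over 2 libraries, and the dotted line marks a value of 0 FPKM. The wide gaps are those of Cd74 and H2-Ab1, while H2-Aa, H2-Eb1 and Ciita lie at or near the dotted line in both populations.

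Markers of Langerhans and dendritic cells were low in all 4 libraries. Of 10 Langerhans and dendritic cell markers, 5 were listed at 0 in every library, among them Cd207, which encodes langerin, and Itgax, which encodes CD11c. Whether cells of these types already express the markers at E17.5 was not tested. Summed over the 10, they reached 1.61 and 2.01 FPKM in Shh+ cells, against 0.706 and 1.11 FPKM in Nfatc1+ cells, where Cd74 alone had the values given above. Within that list Batf3, named after its values were seen, a dendritic cell transcription factor gene, was called higher in Shh+ cells (0.842 and 1.09 FPKM, against 0.312 and 0 FPKM in the Nfatc1+ libraries, adjusted p = 0.0223 by limma), a call that ended without Shh+ replicate 1 (0.0532) or 2 (0.093) or Nfatc1+ replicate 2 (0.0815). Csf1r was at 0.350 and 0.805 FPKM in Shh+ cells, against 0.208 and 0.975 FPKM in Nfatc1+ cells. Without Csf1r the list summed to 1.26 and 1.20 FPKM in Shh+ cells, against 0.498 and 0.134 FPKM in Nfatc1+ cells. With or without it, both Shh+ sums lay above both Nfatc1+ sums, the direction of Cd74, and most of the Shh+ sum without Csf1r was Batf3, which reached the minimum for the test through the Shh+ libraries only.

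Of 15 measured markers of leukocytes in general, 11 were under 1 FPKM in every library. Ptprc, which encodes CD45, was at 0.0370 and 0 FPKM in Shh+ cells, against 0.0514 and 0.0555 FPKM in Nfatc1+ cells. The list summed to 67.3 and 75.9 FPKM in Shh+ cells, against 44.5 and 43.9 FPKM in Nfatc1+ cells. Nearly all of the sum was Arhgdib (63.7 and 71.2 FPKM, against 41.2 and 38.7 FPKM), called higher in Shh+ cells (adjusted p = 0.000401 by limma). Without Arhgdib the list summed to 3.57 and 4.72 FPKM in Shh+ cells, against 3.33 and 5.26 FPKM in Nfatc1+ cells. The 15 macrophage markers summed to 8.28 and 14.5 FPKM in Shh+ cells, against 7.72 and 16.0 FPKM in Nfatc1+ cells, with the highest single value at Cd68. One of them, Aif1, also named after its values were seen, was called higher in Shh+ cells (2.73 and 4.19 FPKM, against 0.963 and 0.648 FPKM, adjusted p = 0.00235). The 6 B cell markers summed to 1.18 and 1.07 FPKM in Shh+ cells, against 1.17 and 1.11 FPKM in Nfatc1+ cells, with the highest single value at Blnk and Cd79a at 0.239 and 0 FPKM against 0.295 and 0.397 FPKM. The sums of the leukocyte list without Arhgdib, the macrophage list and the B cell list overlapped between the groups. Those of the whole leukocyte list and of the T cell list, given next, did not, with Shh+ cells above, as for Cd74 and H2-Ab1. The mast cell sums lay the other way. Of 7 T cell markers, 4 were listed at 0 throughout, including Cd3e. Their sums, 6.45 and 6.69 FPKM in Shh+ cells, against 5.18 and 5.38 FPKM in Nfatc1+ cells, were nearly all Lck (6.45 and 6.56 FPKM, against 5.08 and 5.09 FPKM). The 7 mast cell markers summed to 10.2 and 11.2 FPKM in Shh+ cells, against 16.9 and 20.7 FPKM in Nfatc1+ cells. Of 4 tested, 2 were called, both higher in Nfatc1+ cells, where the shares over all tested genes were 18.1% toward Shh+ and 18.9% toward Nfatc1+ cells. Cpa3, which encodes a carboxypeptidase of mast cells, was at 4.38 and 5.32 FPKM in Shh+ cells, against 6.72 and 8.75 FPKM in Nfatc1+ cells (adjusted p = 0.022), a call that ended without Shh+ replicate 1 (0.11) or Nfatc1+ replicate 2 (0.136) and with no filter (0.06). The other mast cell gene called was Cma1, also named after its values were seen. Cma1 was at 2.74 and 2.94 FPKM in Shh+ cells, against 5.92 and 6.78 FPKM in Nfatc1+ cells (adjusted p = 0.00106 by limma). Its call held under every alternative that kept all libraries. The part of any of these cells in the class II values was not tested.

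Markers of other cell types also differed between groups or replicates. The fibroblast gene Dcn was at 326 and 425 FPKM in Shh+ cells, against 40.3 and 57.7 FPKM in Nfatc1+ cells (adjusted p = 4.2e-05). The other 5 fibroblast markers, without Dcn, summed to 217 and 180 FPKM in Shh+ cells, against 243 and 490 FPKM in Nfatc1+ cells. Among them Col3a1, named after its values were seen, was called higher in Nfatc1+ cells (log2 difference −0.97, adjusted p = 0.0422 by limma). The 7 melanocyte markers, with the highest single value at Dct, summed to 6.15 and 38.9 FPKM in Shh+ cells, against 28.5 and 59.2 FPKM in Nfatc1+ cells. Among them Mitf, also named after its values were seen, was called higher in Nfatc1+ cells (adjusted p = 5.18e-05 by limma). Mitf was at 0.860 and 1.29 FPKM in Shh+ cells, against 9.74 and 12.3 FPKM in Nfatc1+ cells. The other melanocyte markers were not called. The 4 endothelial markers summed to 3.49 and 3.21 FPKM in Shh+ cells, against 2.85 and 4.18 FPKM in Nfatc1+ cells, and the highest value of any was that of Pecam1 in Shh+ replicate 1 (1.65 FPKM). The 7 epithelial markers, with the highest single value at Krt5, summed to 6699 and 6502 FPKM in Shh+ cells, against 10104 and 9849 FPKM in Nfatc1+ cells. In these bulk libraries, fewer cells of a type and less RNA per cell cannot be told apart.

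**Figure D2:**
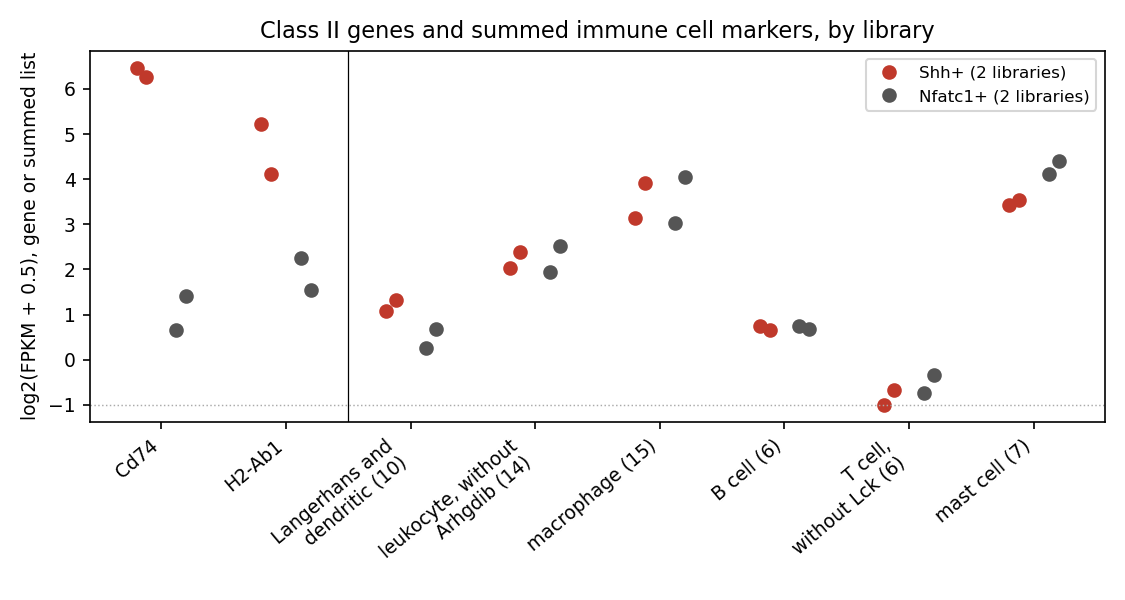
Cd74 and H2-Ab1 beside the summed FPKM of immune cell marker lists, as log2(FPKM + 0.5), in each library of Shh+ (red) and Nfatc1+ (grey) cells, with the number of markers in parentheses and the dotted line at 0 FPKM. The leukocyte list is shown without Arhgdib and the T cell list without Lck, and the other lists are whole. With these genes kept, both sums lay higher in the Shh+ libraries. The macrophage sums in the Nfatc1+ libraries, 7.72 and 16.0 FPKM, lay above H2-Ab1 there. Cd74 spans from 1.08 FPKM in Nfatc1+ replicate 1 to 88.2 FPKM in Shh+ replicate 1, while the Langerhans and dendritic sums stay between 0.706 and 2.01 FPKM.

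Class I genes were expressed in both populations, and 3 of the 4 had more RNA in Shh+ cells. B2m, which encodes β2-microglobulin (chromosome 2, 122147687 to 122153082), was at 67.0 and 75.1 FPKM in Shh+ libraries, against 52.1 and 49.5 FPKM in Nfatc1+ libraries, a ratio of means of 1.40. H2-K1, the gene of the classical heavy chain H2-K (chromosome 17, 33996012 to 34000619), was at 32.9 and 37.1 FPKM in Shh+ libraries, against 7.76 and 11.3 FPKM in Nfatc1+ libraries, a ratio of 3.67. H2-D1, the gene of the other classical heavy chain (chromosome 17, 35263094 to 35267497), was at 30.0 and 35.3 FPKM in Shh+ libraries, against 13.99 and 19.9 FPKM in Nfatc1+ libraries, a ratio of 1.92. For these 3 genes every Shh+ value lay above every Nfatc1+ value, with log2 differences of 0.48, 1.84 and 0.94. That order held for 35.6% of all tested genes and the reverse for 35.1%, so nothing is read from this count. Tap1 encodes a subunit of the peptide transporter TAP (chromosome 17, 34187556 to 34197225) and went the other way, at 4.46 and 5.63 FPKM in Shh+ cells, against 7.53 and 9.48 FPKM in Nfatc1+ cells (log2 difference −0.70).

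The 2 heavy chains stood in another proportion in each population. H2-K1 had 1.10 and 1.05 times the FPKM of H2-D1 in Shh+ libraries and 0.555 and 0.567 times in Nfatc1+ libraries. B2m had 1.07 and 1.04 times the summed FPKM of both heavy chains in Shh+ libraries, against 2.40 and 1.58 times in Nfatc1+ libraries. Neither proportion overlapped between the populations. No window of 100 bases in the annotated H2-K1 transcripts was shared with another protein-coding gene, and 4.09% of those of H2-D1 were. The transcripts used held 0 windows for the class I genes H2-L, H2-Q5 and H2-T9, so sharing with these was not measured.

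On average over their genes, class I stood above class II in every library, and class II varied more among its own genes. The mean of log2(FPKM + 0.5) over the 4 class I genes was 4.70 ± 0.15 in Shh+ cells, against 4.06 ± 0.22 in Nfatc1+ cells (SD, n = 2 each). Over the 6 class II genes it was 1.61 ± 0.27 in Shh+ cells, against 0.32 ± 0.02 in Nfatc1+ cells. The difference of class II minus class I was −3.09 ± 0.43 in Shh+ cells and −3.74 ± 0.24 in Nfatc1+ cells, so the gap between the classes was smaller by 0.65 log2 units in Shh+ cells. This rested on Cd74: with it left out, the value was −0.16, and over the 3 class II and 4 class I genes that passed the minimum it was 1.99. Without 1 library in turn it ran from 0.35, without Shh+ replicate 1, to 0.95, without Shh+ replicate 2. The log2 differences ran from −0.23 to 5.34 in class II, with a median of −0.01, and from −0.70 to 1.84 in class I, with a median of 0.71, where the median over all 12750 tested genes was 0.00179. Both Shh+ libraries lay above both Nfatc1+ libraries for 2 class II and 3 class I genes, against 35.6% of all tested genes, and below them for 1 class II and 1 class I gene, against 35.1%. Since this contrast chose the members, nothing is read from these counts.

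The promoters of the members are shown from RefSeq (build GRCm38.p6), from 250 bases before to 50 bases after the annotated start. The table used held 7 of the 10 members, without Cd74, H2-Ab1 and Ciita. Printed are H2-K1 and H2-D1, the heavy chain genes with more RNA in Shh+ cells, B2m, the chain they share, and H2-Aa and H2-Eb1, the class II genes at or near 0. Capitals mark matches on either strand to the κB core GGGATTCCC, the interferon element cores GAAANNGAA and GAANNGAAA, the Y box cores ATTGGC and ATTGGT and the X box cores CCTAGCAAC and CTAGCAAC, of which the last is part of the one before. GAANNGAAA was added after the sequences had been seen. H2-K1 is the first of 2 starts in the table (chr17:34000298-34000597, minus strand), followed by H2-D1 (chr17:35262844-35263143, plus strand), B2m (chr2:122147437-122147736, plus strand), H2-Aa (chr17:34287774-34288073, minus strand) and H2-Eb1 (chr17:34305617-34305916, plus strand):
H2-K1: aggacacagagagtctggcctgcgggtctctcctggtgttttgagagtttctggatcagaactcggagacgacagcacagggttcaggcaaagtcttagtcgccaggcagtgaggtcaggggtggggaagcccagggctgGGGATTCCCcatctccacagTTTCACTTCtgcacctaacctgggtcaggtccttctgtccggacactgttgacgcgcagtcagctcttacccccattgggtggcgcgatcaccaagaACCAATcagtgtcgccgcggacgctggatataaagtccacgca
H2-D1: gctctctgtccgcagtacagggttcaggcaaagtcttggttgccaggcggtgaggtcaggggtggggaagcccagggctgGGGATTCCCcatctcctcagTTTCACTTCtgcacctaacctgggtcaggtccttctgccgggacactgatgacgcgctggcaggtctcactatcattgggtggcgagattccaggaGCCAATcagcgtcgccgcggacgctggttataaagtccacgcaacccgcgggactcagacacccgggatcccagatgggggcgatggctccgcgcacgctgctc
B2m: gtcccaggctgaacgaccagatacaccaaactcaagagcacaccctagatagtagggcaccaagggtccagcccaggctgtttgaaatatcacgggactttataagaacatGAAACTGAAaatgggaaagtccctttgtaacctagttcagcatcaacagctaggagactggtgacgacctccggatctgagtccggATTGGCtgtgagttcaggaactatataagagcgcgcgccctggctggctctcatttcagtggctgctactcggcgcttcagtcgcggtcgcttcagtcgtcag
H2-Aa: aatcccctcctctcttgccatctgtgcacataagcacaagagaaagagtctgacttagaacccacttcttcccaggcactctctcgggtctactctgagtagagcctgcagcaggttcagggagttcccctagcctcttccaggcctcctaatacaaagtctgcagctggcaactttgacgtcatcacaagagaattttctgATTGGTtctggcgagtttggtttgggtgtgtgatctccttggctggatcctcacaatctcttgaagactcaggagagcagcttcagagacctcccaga
H2-Eb1: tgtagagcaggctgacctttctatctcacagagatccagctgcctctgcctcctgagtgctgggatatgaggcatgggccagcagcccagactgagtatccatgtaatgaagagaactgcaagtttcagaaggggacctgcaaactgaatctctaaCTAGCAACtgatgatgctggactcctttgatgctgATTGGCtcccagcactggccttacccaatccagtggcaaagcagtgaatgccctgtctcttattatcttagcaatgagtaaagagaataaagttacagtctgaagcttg

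The κB core, a binding sequence of the NF-κB factors, stood 110 bases before the start of H2-K1 and 170 bases before that of H2-D1, and 0.353% of the 32851 promoters in the table hold it. None of the other 5 members in the table held it, where only the first of 2 starts of H2-DMa was searched. GAANNGAAA, a core of the element through which interferons act, lay 90 and 150 bases before the starts of the same 2 genes (7.52% of promoters), and B2m held the form GAAANNGAA (8.56%). H2-Eb1 held CTAGCAAC (1.32% of promoters) and ATTGGC (14.7%), the X and Y boxes of class II promoters, in the order X then Y. H2-Aa held ATTGGT (11.5%), B2m and H2-D1 held ATTGGC 53 and 54 bases before their starts, H2-K1 held ATTGGT just after its start, and no printed promoter held CCTAGCAAC (0.804%). The other start of H2-K1 was not searched. The letters TATAAAG lie after the start printed for H2-K1 and before that of H2-D1. Distances from these starts are therefore not comparable between the genes. Tap1 and the first start of H2-DMa held no match to any of these letters, and the other start of H2-DMa was not searched. The stretch searched for H2-DMa (chr17:34122582-34122881) overlaps the neighboring gene Brd2, which ends at 34122814. The lack of a match is therefore not read as a trait of H2-DMa. A match describes the sequence and is not a measurement of binding.

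Other class I and class I-like chains were called in both directions. Of 25 genes on that list, all were in the table, 11 were tested, 2 were higher in Shh+ cells while 5 were higher in Nfatc1+ cells, where limma at an adjusted p under 0.05 called 18.1% of all tested genes toward Shh+ cells and 18.9% toward Nfatc1+ cells. H2-T23 encodes Qa-1, a nonclassical chain seen by the NKG2A receptor of NK cells. It was at 13.2 and 7.11 FPKM in Shh+ cells, against 67.7 and 40.2 FPKM in Nfatc1+ cells, so that H2-T23 had 0.403 and 0.191 times the FPKM of H2-K1 in Shh+ libraries and 8.73 and 3.55 times in Nfatc1+ libraries. Its log2 difference was −2.36 (standard error 0.31, adjusted p = 0.00135 by limma), with adjusted p from 3.2e-07 to 0.0138 over the alternatives. The groups did not overlap for H2-T23, and its direction was opposite to that of H2-K1 and H2-D1.

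Fcgrt, the gene of the neonatal Fc receptor, which carries antibody across cells, was at 1.65 and 1.04 FPKM in Shh+ cells, against 8.34 and 9.88 FPKM in Nfatc1+ cells (log2 difference −2.40, adjusted p = 0.000129). The others higher in Nfatc1+ cells were H2-T9 (−1.04), Mr1, which presents vitamin B metabolites (−0.89), and H2-T22 (−0.82), the last 2 named after their values were seen. Higher in Shh+ cells were H2-T10 (3.36 and 3.81 FPKM, against 0.788 and 2.35 FPKM in Nfatc1+ cells, log2 difference 1.09) and H2-Q4 (20.9 and 23 FPKM, against 16.2 and 17.2 FPKM, 0.38). H2-T10 and H2-T22, which encode ligands of some γδ T cells, shared 11.8% and 11.4% of their 100-base windows with other protein-coding genes, and 7.28% were shared for H2-T23, so part of their reads could be split between copies. H2-T9 had 0 windows in the transcripts used, so its sharing was not measured, and these shares leave it out. The call of H2-T10 ended without Nfatc1+ replicate 1 (adjusted p = 0.11), Shh+ replicate 1 (0.127) or Shh+ replicate 2 (0.171), with a pseudocount of 0.1 (0.0551), with no filter (0.113) and without a variance trend (0.105). Those of H2-T22 and H2-Q4 ended without Nfatc1+ replicate 1 (0.0786 and 0.0727) or Shh+ replicate 2 (0.0645 and 0.0571), and that of H2-T9 without Nfatc1+ replicate 1 (0.0772). Without Nfatc1+ replicate 1 the counts were 0 in Shh+ and 3 in Nfatc1+ cells.

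**Figure D3:**
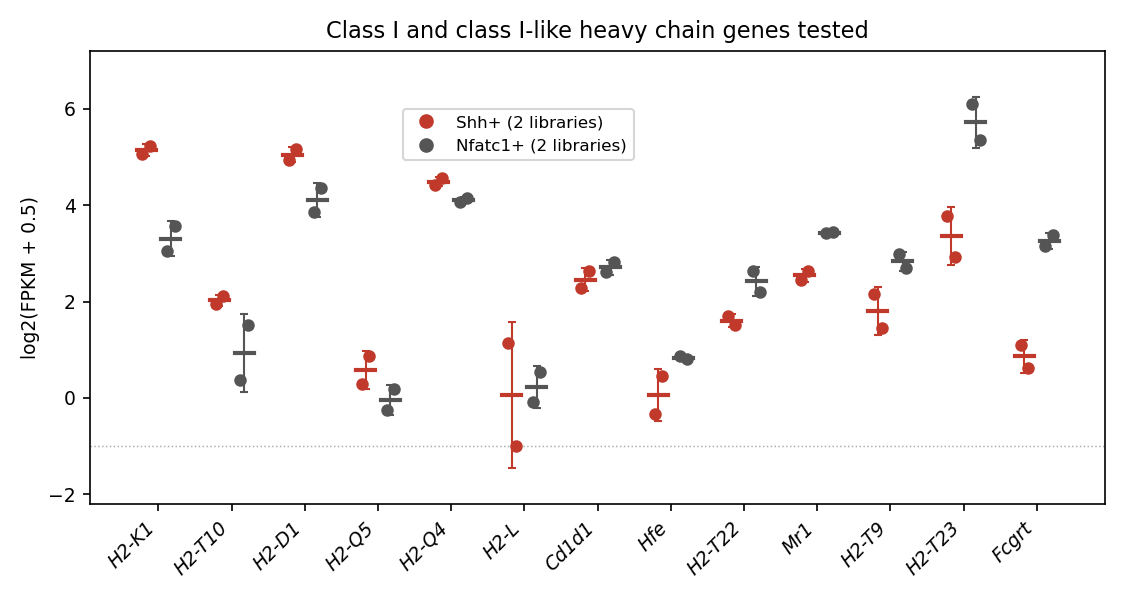
Expression of H2-K1 and H2-D1 and of the 11 tested genes of other class I chains as log2(FPKM + 0.5) in each library of Shh+ (red) and Nfatc1+ (grey) cells, in order of their log2 difference. Points are libraries, thick lines are means, bars are the SD over 2 libraries and the dotted line is 0 FPKM. H2-K1 and H2-D1 lie toward the Shh+ end and H2-T23 and Fcgrt at the Nfatc1+ end.

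Most genes that supply and load peptides on class I were not called. Of 13 listed, 12 were tested, 2 were higher in Shh+ cells while 1 was higher in Nfatc1+ cells, where the shares over all tested genes were 18.1% and 18.9%. Tapbp, which encodes tapasin, the bridge between TAP and the heavy chain, was at 17.3 and 17.8 FPKM in Shh+ cells, against 12.6 and 13.2 FPKM in Nfatc1+ cells (log2 difference 0.43, adjusted p = 0.00597 by limma). The chaperone gene Calr was higher in Shh+ cells by 0.31 log2 units (adjusted p = 0.0362), a call that ended without Shh+ replicate 1 (0.134) or Nfatc1+ replicate 1 (0.0788) or 2 (0.142), with no filter (0.0859) and without a variance trend (0.113). Psmb8, a subunit of the interferon-induced proteasome, was at 0.349 and 0.422 FPKM in Shh+ cells, against 1.62 and 1.13 FPKM in Nfatc1+ cells (adjusted p = 0.0114, and 0.0663 without Nfatc1+ replicate 1), and reached the minimum through the Nfatc1+ libraries only. Nlrc5, the class I counterpart of Ciita, was listed at 0 in both Shh+ libraries and at 0.0254 and 0.0411 FPKM in Nfatc1+ libraries. Without Shh+ replicate 2, the genes of this list higher in Nfatc1+ cells numbered 2. Thus neither coactivator gene, Ciita or Nlrc5, reached 0.1 FPKM in any library.

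None of the factors through which CIITA acts on class II promoters was called. Of 7 such genes, Rfx5, Rfxap, Rfxank, Nfya, Nfyb, Nfyc and Creb1, limma called 0 in either direction, and 0 were at an unadjusted p under 0.05 (adjusted p from 0.12 to 0.994). The shares called over all tested genes were 18.1% toward Shh+ and 18.9% toward Nfatc1+ cells. Rfx5, whose product binds the X box, was at 10.6 and 10.6 FPKM in Shh+ cells, against 10.4 and 10.7 FPKM in Nfatc1+ cells. Nfyb and Nfyc, subunits of the Y box factor NF-Y, were at 32.2 and 30.4 FPKM and 42.6 and 42.6 FPKM in Shh+ cells, against 31.4 and 31.1 FPKM and 45.8 and 43.0 FPKM in Nfatc1+ cells. These 3 had differences within 0.06 log2 units.

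Of 10 other class II chain and processing genes, 7 were below the minimum for the test, among them H2-DMb1, H2-Ob and the protease gene Ctss. The 3 tested are lysosomal enzymes that also act outside antigen presentation, and 2 were higher in Shh+ cells while 1 was higher in Nfatc1+ cells, where the shares over all tested genes were 18.1% and 18.9%. Lgmn, an endopeptidase gene, was at 27.2 and 25.05 FPKM in Shh+ cells, against 19.7 and 18.8 FPKM in Nfatc1+ cells (log2 difference 0.43, adjusted p = 0.00545 by limma). Ctsl, a protease gene, was higher in Shh+ cells by 0.25 log2 units (adjusted p = 0.0148), a call that ended without Shh+ replicate 1 (0.0575), Nfatc1+ replicate 1 (0.0543) or Nfatc1+ replicate 2 (0.0839) and without a variance trend (0.0671). Ifi30, a thiol reductase gene, was at 33.6 and 31.7 FPKM in Shh+ cells, against 56.1 and 44.1 FPKM in Nfatc1+ cells (−0.60, adjusted p = 0.00645).

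Of 18 interferon receptor and signal genes, 17 were tested, 2 were higher in Shh+ cells while 5 were higher in Nfatc1+ cells, where the shares over all tested genes were 18.1% and 18.9%. Ifngr2, a chain of the interferon γ receptor, was at 38.2 and 43.1 FPKM in Shh+ cells, against 21.3 and 19.1 FPKM in Nfatc1+ cells (log2 difference 0.99, adjusted p = 0.000237 by limma), and the kinase gene Jak1 was higher by 0.66 (0.000297). Ifngr1, the ligand-binding chain of the same receptor, was at 3.64 and 2.78 FPKM in Shh+ cells, against 3.50 and 4.02 FPKM in Nfatc1+ cells (adjusted p = 0.361). Socs3, a feedback inhibitor gene, was at 9.12 and 9.97 FPKM in Shh+ cells, against 30.1 and 27.6 FPKM in Nfatc1+ cells (−1.54, adjusted p = 3.06e-05), and Irf2 had a log2 difference of −0.49 (0.00411). Irf1 was at 3.10 and 4.61 FPKM in Shh+ cells, inside the Nfatc1+ values of 2.57 and 6.29 FPKM. The 5 genes higher in Nfatc1+ cells were 3 without Shh+ replicate 1 or 2 and 2 without Nfatc1+ replicate 1 or 2.

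Genes induced by interferons were mostly too low to test. Of 38 listed, 10 were tested, 6 were higher in Shh+ cells while 1 was higher in Nfatc1+ cells, where the shares over all tested genes were 18.1% and 18.9%. Cxcl10, Cxcl9 and Gbp6 reached the minimum for the test through the Shh+ libraries only, so nothing is read from this count. Below the minimum were genes of either direction, such as Gbp4 (0.666 and 1.04 FPKM in Shh+ cells, against 0 and 0.0430 FPKM in Nfatc1+ cells) and Ifih1 (0.0865 and 0.143 FPKM, against 0.514 and 0.728 FPKM), both named after their values were seen. Cxcl10, which encodes a chemokine for activated T cells, was at 6.03 and 6.37 FPKM in Shh+ cells, against 0.366 and 0.197 FPKM in Nfatc1+ cells (log2 difference 3.11, adjusted p = 3.51e-05 by limma). The related chemokine gene Cxcl9 was at 1.01 and 1.25 FPKM in Shh+ cells, against 0 and 0.0338 FPKM in Nfatc1+ cells (1.66, adjusted p = 0.0023). Gbp6, a guanylate-binding protein gene, was at 2.10 and 1.91 FPKM in Shh+ cells, against 0.0414 and 0.156 FPKM in Nfatc1+ cells (2.07, adjusted p = 0.000558), but 82.9% of its 100-base windows were shared with Gbp10 and other relatives, so it stands for the group. For each of these 3 genes the groups did not overlap. The other 3 higher in Shh+ cells, named after their values were seen, were Ddx58, a sensor of viral RNA (1.5), Bst2 (0.93) and Ifit2 (0.53).

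The call of Bst2 ended without Shh+ replicate 2 (adjusted p = 0.0602) or Nfatc1+ replicate 2 (0.0562). That of Ifit2 (0.0473) ended without any 1 library (0.0648 to 0.177), with the replicate block (0.0507), with a pseudocount of 0.1, with either other filter and with upper-quartile scaling. Ifi35 was higher in Nfatc1+ cells (−0.59, adjusted p = 0.0169), a call that ended without Shh+ replicate 2 (0.071) or Nfatc1+ replicate 1 (0.101) or 2 (0.0554), which took the count of 1 to 0.

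Of the ligands through which presenting cells act on T cells, most were too low to test. Of 15, 5 were tested, 3 were higher in Shh+ cells while limma called 0 toward Nfatc1+ cells, where 0 were at an unadjusted p under 0.05 in that direction, and the shares over all tested genes were 18.1% and 18.9%. Cd274 encodes the inhibitory ligand PD-L1 and was at 2.32 and 2.15 FPKM in Shh+ cells, against 0.0989 and 0.160 FPKM in Nfatc1+ cells (log2 difference 2.12, adjusted p = 0.000349 by limma). Cd274 reached the minimum through the Shh+ libraries only, so nothing is read from the count of this list. Icam1, an adhesion molecule gene, was at 35.5 and 42.0 FPKM in Shh+ cells, against 14.5 and 18 FPKM in Nfatc1+ cells (1.23, adjusted p = 0.00037). Tnfsf9, the gene of 4-1BB ligand, was called at adjusted p = 0.0473 (0.51), which ended without any 1 library (0.0837 to 0.21), with the replicate block (0.0512), with a pseudocount of 0.1, with either other filter and with upper-quartile scaling. The costimulatory genes Cd80, Cd86 and Cd40, named after their values were seen, stayed under 0.5 FPKM in every library.

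**Figure D4:**
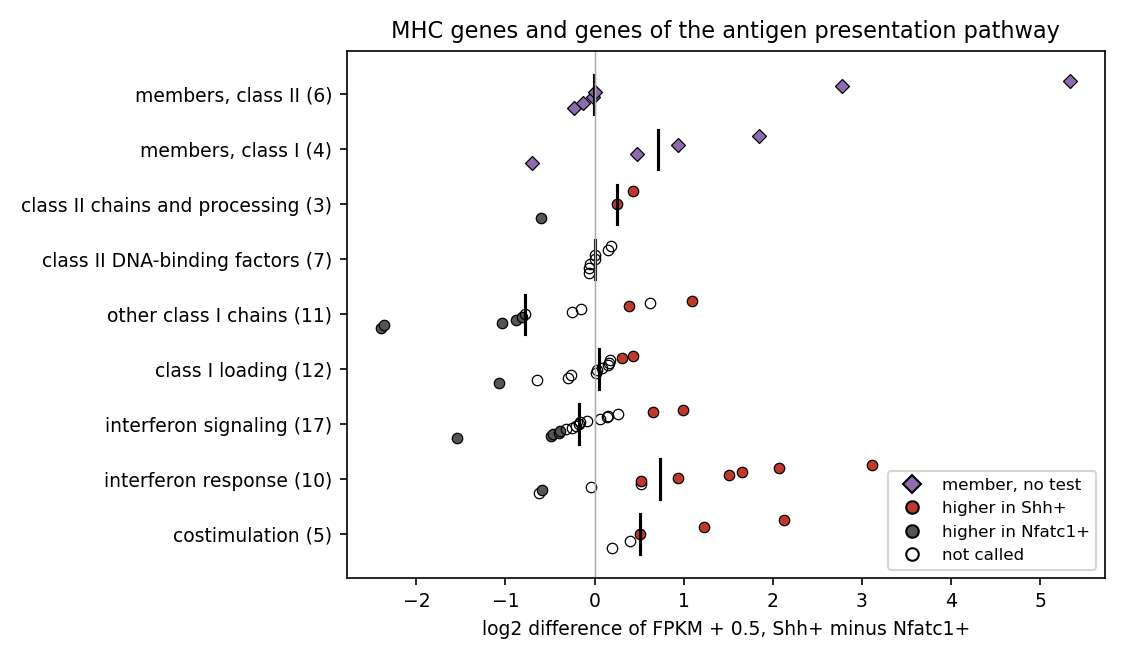
Log2 difference of FPKM + 0.5, Shh+ minus Nfatc1+, of the 10 MHC genes (purple diamonds, no test) and of each tested gene of 7 lists, with the number of genes in parentheses. Circles are red for calls toward Shh+, grey for calls toward Nfatc1+ and open otherwise, with a black line at each median. Cd74 at 5.34 and H2-Ab1 at 2.78 stand apart from the other class II genes, and the class II DNA-binding factors lie near 0.

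Of the members, 7 lie on chromosome 17 between H2-K1 and H2-D1, in the MHC, while Cd74, Ciita and B2m lie on other chromosomes. The stretch from 33996012 to 35267497 held 83 further genes of the table, of which 52 were tested, 10 were higher in Shh+ cells while 8 were higher in Nfatc1+ cells, with a median log2 difference of −0.02. These counts are near the shares over all tested genes, 18.1% and 18.9%. Within it, the log2 difference was 2.78 for H2-Ab1 and −0.13 for H2-Aa. The widest differences among the neighbors called were those of Ltb (5.43), Tnf (3.14) and Ly6g6e (2.18) toward Shh+ cells and of Psmb8 (−1.07), Ly6g6c (−0.98) and Hspa1b (−0.87) toward Nfatc1+ cells. Ltb and Tnf, neighboring genes of cytokines of the tumor necrosis factor family, were at 29.1 and 25.5 FPKM and at 22.5 and 35.9 FPKM in Shh+ cells, against 0.0920 and 0.198 FPKM and 1.65 and 4.52 FPKM in Nfatc1+ cells (adjusted p = 3.03e-06 and 0.000954 by limma), and Ltb reached the minimum through the Shh+ libraries only. The 8 neighbors higher in Nfatc1+ cells were 5 without Shh+ replicate 1, 4 without Nfatc1+ replicate 1 and 5 without Nfatc1+ replicate 2.

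**Figure D5:**
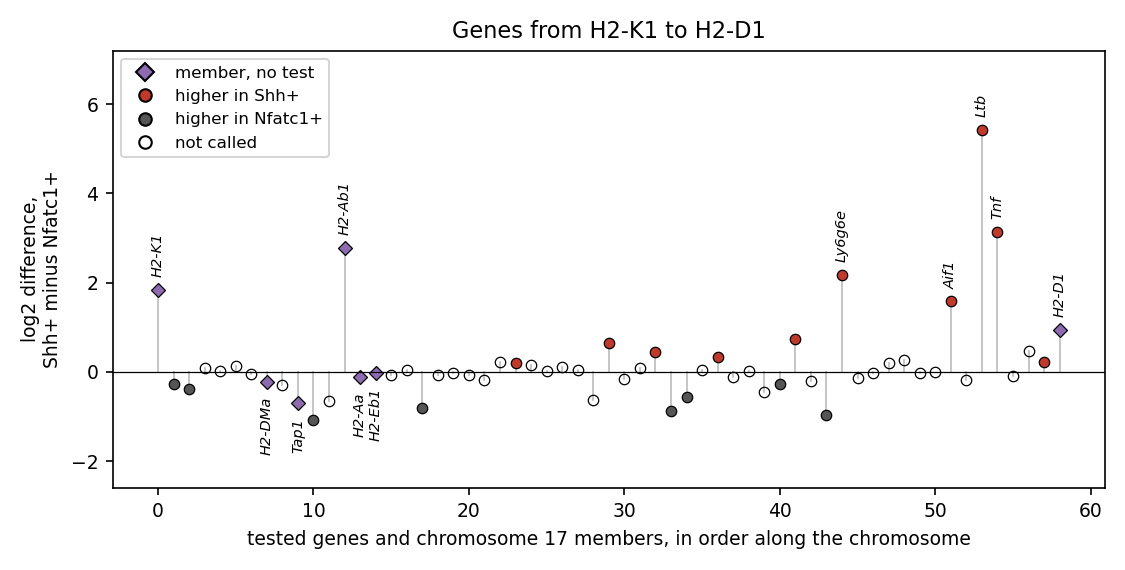
Log2 difference, Shh+ minus Nfatc1+, of the 52 tested genes and the 7 members from H2-K1 to H2-D1, in their order along chromosome 17. Purple diamonds are members, with no test, and circles are red for calls toward Shh+, grey for calls toward Nfatc1+ and open otherwise. H2-Ab1 at 2.78, Ltb at 5.43 and Tnf at 3.14 stand above neighbors near 0.

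Across the 4 libraries, the genes whose pattern was most like that of Cd74 were Slc14a1, Ltb, Crym, Nnat and Madcam1. Likeness was the distance between values of log2(FPKM + 0.5) after each gene's mean had been taken off, among genes averaging at least 5 FPKM, and it ran from 0.3 for Slc14a1 to 0.734 for Madcam1. Slc14a1, a urea transporter gene, was at 33.7 and 36.9 FPKM in Shh+ cells, against 0.302 and 0.715 FPKM in Nfatc1+ cells. Madcam1, the gene of a mucosal cell adhesion molecule, was at 16.7 and 14.5 FPKM in Shh+ cells, against 0.0683 and 0.0736 FPKM in Nfatc1+ cells. With 4 libraries this order describes the table only.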

How the data were processed

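RNA was measured in 2 Shh+ and 2 Nfatc1+ libraries. The authors mapped paired-end reads to GRCm38/mm10 with TopHat (2.0.13) and quantified genes with Cufflinks (2.2.1), and the deposited FPKM values were used as given. The submitters' processing notes also name HTSeq, with no role. The gene annotation used is not given in the sources used here.

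Genes averaging at least 0.5 FPKM over the 4 libraries were tested on log2(FPKM + 0.5) with limma (3.58.1, R 4.3.3; lmFit and eBayes with a variance trend, two-sided, 2 residual degrees of freedom) over 12750 genes, adjusted by the Benjamini-Hochberg method, and called at an adjusted p under 0.05. The script was tested on simulated data. Members and lists were chosen with earlier results of these data known. Named genes were the members, a few genes fixed by name, up to 3 called genes per list and direction by size of difference, the top genes of lists with fewer than 2 calls, the highest and the defining genes of marker lists, and the 5 genes nearest to Cd74. Positions and neighbors came from RefSeq GRCm38.p6, and shared windows from GENCODE transcripts. One gene that the rule names is not reported here.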

Additional observations from a re-analysis of the deposited data

How the results depend on the processing

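With 2 libraries per group and no read counts, calls near the threshold were the least certain, and relative depth was lowest in Shh+ replicate 2. Alternatives changed the pseudocount (0.1 or 1), the filter (none, or a mean of 1 FPKM), the scaling, the variance trend, the threshold, the replicate block and the libraries used. The direction of Cd74, H2-Ab1, B2m, H2-K1, H2-D1 and Tap1 was kept under each pseudocount, scaling and left-out library.

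The gap of class II against class I between the populations, 0.65 log2 units, was 1.99 over members that pass the filter and −0.16 without Cd74. It ran from 0.35 to 0.95 without 1 library. The counts below are given as higher in Shh+ and higher in Nfatc1+. When a call needed more than a 2-fold change and p below 0.01 with no adjustment, all genes called were 600 and 734 in place of 2310 and 2406, class I chains 0 and 3, class II processing 0 and 0, interferon signals 0 and 1, immediate early genes 0 and 8 and region neighbors 4 and 1, and class I loading was 0 in Shh+ and interferon response 0 in Nfatc1+. Without a variance trend, class I loading was 1 in Shh+, class I chains 1 in Shh+, class II processing 1 in Shh+, immediate early genes 0 in Shh+, interferon response 2 in Nfatc1+ and region neighbors 5 in Nfatc1+. With no filter, class I loading was 1 and immediate early genes 0 in Shh+, and interferon response 3 and interferon signals 3 in Nfatc1+. Class I loading in Nfatc1+ was 0 with a filter at 1 FPKM, which left out Psmb8, and 2 with upper-quartile scaling or the replicate block, and class I chains in Shh+ were 1 with a pseudocount of 0.1. Beyond the filter, the cause was not tested.

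Leaving out 1 library gave ranges of 1529 to 1741 for all genes in Shh+, 0 to 2 and 1 to 3 for class I loading in Nfatc1+ and Shh+, 3 to 5 and 0 to 2 for class I chains in Nfatc1+ and Shh+, 1 to 2 for class II processing in Shh+, 0 to 2 for immediate early genes in Shh+, 0 to 1 for interferon response in Nfatc1+, 2 to 3 for interferon signals in Nfatc1+ and 4 to 6 for region neighbors in Nfatc1+. The lowest count over all genes came without Nfatc1+ replicate 2. Replicate numbers were not used as pairs in the main fit, and whether they mark a shared batch was not tested. The differences of replicate 2 minus 1 correlated across genes at r = 0.114 between the groups. The replicate block moved no count by more than 1.5 times other than that of class I loading in Nfatc1+, and ended the calls of Ifit2, Tnfsf9 and Krt14.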
